A study of Arabidopsis thaliana with 6 samples.

Results

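Transcript levels were compared between light and darkness in rosettes of Arabidopsis thaliana kept at low CO2, so that light was supplied while the carbon for photosynthesis was held short. The comparison took every array labelled low CO2 with light (replicates A and B) and every array labelled low CO2 with dark (A and B), 4 of the 6 arrays of the series, and described all probe sets except the controls. All plants were of the pgm mutant in the Col-0 background, were 5 to 6 weeks old and had spent 4 hours in their treatment. The darkness was prolonged darkness, that is, an extension of the night. The other 2 arrays held normal CO2 in light; they entered the fit for its estimate of the spread, and their values are given beside a few genes as a description. The series text calls the replicates biological. Each RNA came from pooled whole rosettes: the protocol speaks of 4 harvests of 3 rosettes and of 15 rosettes ground.

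The pgm mutant lacks the plastidic phosphoglucomutase and makes almost no starch, so it has little carbon store to draw on when photosynthesis stops; this holds for the light and the dark plants alike. In a leaf, light acts through photoreceptors such as phytochromes and cryptochromes, through the redox state of photosynthetic electron transport, and through the sugar that carbon fixation makes. Lowering CO2 limits the last of these, while photoreceptors and electron transport still receive light. Redox state, sugar and the remaining carbon fixation were not measured in these data, so these routes cannot be told apart. PGM1, the mutated gene, was not analysed here.

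Values are array intensities in arbitrary units, and a log2 fold change is light minus darkness on the scale log2(intensity + 7.3). The tissue label could not be checked as planned, because 0 of the 11 leaf mesophyll markers listed had a named probe set. RCA, the Rubisco activase of leaf chloroplasts, is not on that list and was chosen after values were seen. It read 2891 and 3327 in light and 3142 and 2976 in darkness, among the brightest values of the arrays. Of 8 root markers 4 were measured. PYK10, a root and hypocotyl glucosidase, read 296 to 543 and the peroxidase AT5G17820 1.4 to 11.4. AT4G11290 read 13.0 to 17.8 and iqd21 95.2 to 117.2. Light and dark arrays overlapped for all 4. Of 6 guard cell markers 1 was measured, FMA, with 51.1 and 50.6 in light and 54.9 and 45.0 in darkness. Flower and phloem markers had 0 named genes. In whole rosettes, fewer cells of a type and less RNA per cell cannot be told apart.

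Light raised 193 probe sets (0.849%) and lowered 44 (0.193%) in limma at an adjusted p under 0.05, together 1.04% of the 22746 tested. Of the raised ones 171 changed by at least 1 on the log2 scale, and of the lowered ones 36 did. The median log2 fold change was 1.46 among the raised and -1.26 among the lowered probe sets. A single gene name was available for 104 of the raised and 20 of the lowered probe sets, while 89 and 24 had none or several. For each of the 237 probe sets both arrays of one group lay above both of the other. That ordering alone was common: both light arrays were above both dark arrays for 5358 probe sets (23.6%), and both dark arrays were above both light arrays for 5116 (22.5%). The small excess of higher ones turned with scaling, to 4625 higher and 5771 lower after quantile normalization and to 4804 and 5628 with a common median.

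The 2 directions were also counted by brightness. Among the 3489 bright probe sets, with a mean intensity of at least 200 over the 4 arrays, limma called 84 higher and 19 lower in light (2.95%). By ordering alone the bright probe sets leaned the other way, with 832 (23.8%) higher and 1140 (32.7%) lower in light, and their median log2 fold change was -0.07. Under those scalings 858 and 787 bright probe sets were higher and 1152 and 1193 lower. Probe sets of middle brightness, from 50 to under 200, showed the same lean, with 1387 (21.6%) higher and 2264 (35.2%) lower by ordering and calls in 1.76%. The 12830 dim probe sets had 3139 (24.5%) higher and 1712 (13.3%) lower, and calls in 0.164%. Called changes were thus mostly rises, while by ordering alone the bright and middle probe sets were more often lower in light.

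**Figure D1:**
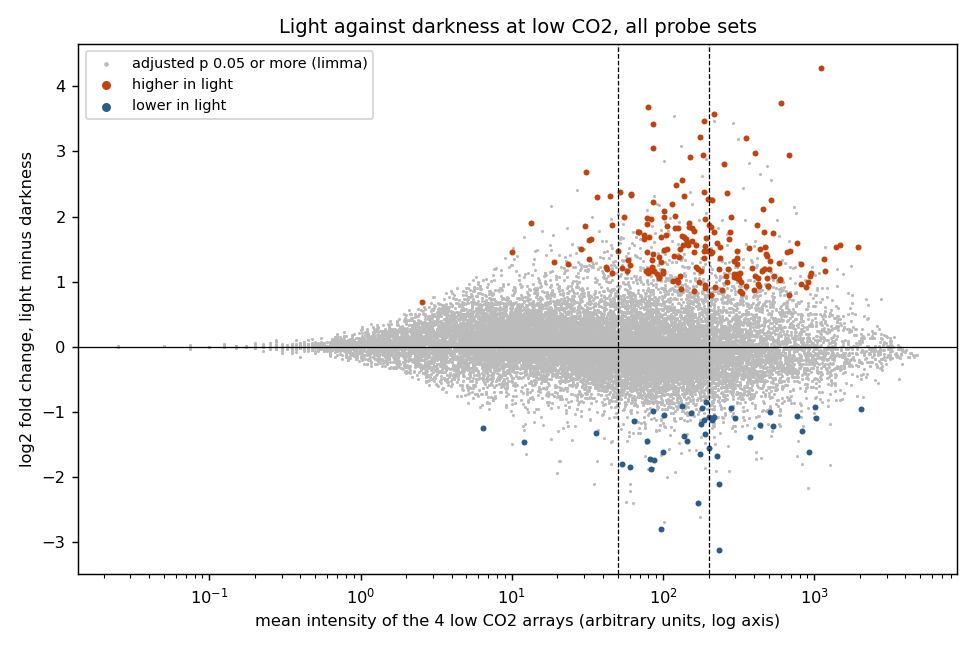
Log2 fold change of light minus darkness at low CO2 (vertical axis) against the mean intensity of the 4 low CO2 arrays (horizontal, log axis), one point per probe set, with dashed lines at intensities of 50 and 200. The 193 probe sets called higher in light reach above 4 on the log2 scale and lie mostly above an intensity of 50; the 44 called lower are fewer and reach about -3.

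The 3 prime to 5 prime ratio of actin, a measure of how complete the labelled RNA is, was 2.63 and 2.84 on the light arrays and 1.97 and 2.34 on the dark arrays in the second set of controls. In the first set it was 4.7 and 4.65 in light and 3.56 and 7.42 in darkness. The light arrays were the higher in the second set and overlapped the dark arrays in the first, and the part of this in the results was not tested. The ratios of the ubiquitin (1.38 to 1.48) and GAPDH controls (1.02 to 1.13) overlapped between light and darkness.

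Bright transcripts that rose encoded proteins of varied function. AT1G70820, annotated as phosphoglucomutase-like and distinct from the gene mutated in this line, read 1334.2 and 922.2 in light and 57.3 and 98.8 in darkness. Both light arrays were many times above both dark arrays, and the log2 fold change was 3.75 ± 0.28 (SE, adjusted p = 0.0144). On the normal CO2 arrays it read 709.2 and 632.3. AT1G62510, of the protease inhibitor and lipid transfer protein family, read 1374.2 and 1041.0 in light against 209.2 and 105.4 in darkness, and rose by 2.95 ± 0.35 (adjusted p = 0.029). Its level with normal CO2 in light, 196.2 and 132.7, lay in the range of the dark arrays rather than that of light at low CO2.

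ATSPS4F (AT4G10120), a sucrose phosphate synthase that catalyses a late step of sucrose synthesis, read 383.0 and 512.3 in light against 66.3 and 96.6 in darkness (2.36 ± 0.22, adjusted p = 0.0172). COR15B (AT2G42530), a cold-induced protein of the chloroplast stroma, read 375.3 and 329.1 against 87.7 and 52.9 (2.25 ± 0.31, adjusted p = 0.0437). Groups of both genes were clearly apart. AT1G13930, a gene reported to take part in salt tolerance, was the most abundant of these rises, with 1980.6 and 2156.6 in light and 706.4 and 718.1 in darkness (1.53 ± 0.14, adjusted p = 0.0147). AT2G46100, of the nuclear transport factor 2 family, read 705.9 and 728.1 against 200.2 and 214.3 (1.76 ± 0.14, adjusted p = 0.0144). In both of these genes the replicates lay close together and the groups far apart. AT1G51805, a leucine-rich repeat receptor kinase, rose by 1.66 ± 0.21 (adjusted p = 0.0366). AT4G34630 (1.87), AT5G40500 (1.84) and AT1G79510 (1.53) completed the larger bright rises, with adjusted p from 0.0254 to 0.0499.

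AT4G36530, an alpha/beta hydrolase, read 662.1 and 751.0 in light and 231.3 and 245.4 in darkness (1.54 ± 0.13, adjusted p = 0.0144), and the less abundant AT4G12830, of the same superfamily, read 328.6 and 370.5 against 29.1 and 21.0 (3.47 ± 0.28, adjusted p = 0.0144). AT5G38520, also of that superfamily and chosen after values were seen, rose by 0.94 ± 0.14 (adjusted p = 0.0446). All 3 had their light arrays above their dark arrays.

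Neighbouring genes for small defensin-like trypsin inhibitors rose together. AT2G43530 read 582.1 and 513.3 in light and 203.4 and 170.1 in darkness (1.52 ± 0.15, adjusted p = 0.0213). AT2G43535 read 186.4 and 194.7 against 45.4 and 28.2 (2.19 ± 0.22, adjusted p = 0.0208). AT2G43550 read 320.6 and 178.7 against 60.9 and 63.1 (1.83 ± 0.27, adjusted p = 0.0446). These were the measured genes of the AT2G435 cluster, 3 of 5, listed after the first of them had been seen to rise. Probe sets of such similar genes can share target RNA, and how far these cross-hybridise is not known here. THI2.2, a thionin and thus another small antimicrobial peptide, read 115.1 and 139.8 in light against 33.7 and 35.4 in darkness (1.68 ± 0.17, adjusted p = 0.0208); it was chosen after values were seen.

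Several rises of middle brightness had a large fold change. AT5G38510, a rhomboid-type intramembrane protease, read 340.0 and 316.3 in light and 32.4 and 40.2 in darkness, and had the smallest adjusted p of the genes named here (2.95 ± 0.15, adjusted p = 0.00527). AT4G16880, a leucine-rich repeat protein, read 142.9 and 164.3 against 10.0 and 1.7 (3.69 ± 0.32, adjusted p = 0.0147). AT5G42250, a zinc-type alcohol dehydrogenase, read 190.7 and 134.7 against 16.0 and 3.3 (3.42 ± 0.38, adjusted p = 0.0276). Dark values of the last 2 lie near the pseudocount of 7.3, which sets the size of their fold change. AT5G59130, a subtilisin-like protease, rose by 2.35 ± 0.31 (adjusted p = 0.0408). MSRB6 (AT4G04840), a methionine sulfoxide reductase that repairs oxidised methionine and was chosen after values were seen, read 224.3 and 239.4 in light against 41.6 and 40.5 in darkness (2.31 ± 0.15, adjusted p = 0.0112). DJ1D (AT3G02720), a glyoxalase of the DJ-1 family chosen in the same way, rose by 1.09 ± 0.16 (adjusted p = 0.0446).

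Light-signalling genes were few among the named probe sets. Both genes for BIC proteins, which inhibit cryptochrome after blue light has activated it, rose: AT3G44450 read 188.0 and 131.9 in light and 12.6 on each dark array, and AT3G52740 read 80.6 and 75.8 against 15.0 and 5.9. The adjusted p was 0.0142 and 0.0446. GI, the clock protein GIGANTEA, read 126.4 and 186.9 in light and 17.1 and 44.8 in darkness, a log2 fold change of 2.18 ± 0.39 that did not pass (adjusted p = 0.0621). GT-1 (AT1G13450), a factor named for binding light-responsive promoter elements, fell: it read 93.7 and 103.1 in light, 209.1 and 205.7 in darkness, and 58.1 and 55.5 with normal CO2 in light (-1.02 ± 0.14, adjusted p = 0.0409; chosen after values were seen).

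Each of the 6 bright falls of named genes that passed read lower with normal CO2 than in light at low CO2. Brightness was defined by the mean over the light and dark arrays, so a bright gene that falls must be abundant in darkness. SIS (AT5G02020), a serine-rich protein induced by salt, read 1242.9 and 1532.7 in darkness, 371.8 and 526.8 in light, and 20 and 13.9 with normal CO2 in light. Its level with light at low CO2 lay between those of the other groups, and its fall was -1.62 ± 0.23 (adjusted p = 0.0437). AT3G07350, a gene of the DUF506 family, read 724.2 and 765.2 in darkness, 277.4 and 361.2 in light, and 38.2 and 37.9 with normal CO2 (-1.21 ± 0.16, adjusted p = 0.0393). AT5G63190, an MA3-domain protein of the MRF family that associates with the translation machinery, read 1329.8 and 1327.6 in darkness, 703.8 and 681.8 in light, and 194.5 and 218.4 with normal CO2 (-0.93 ± 0.13, adjusted p = 0.0409). Replicates of AT5G63190 differed little within each group. The other measured MRF gene, AT1G22730, was dim and had -0.23 (adjusted p = 0.66). AT2G46900 read 367.3 and 380.6 in darkness and 177.6 and 206.1 in light (-0.94 ± 0.14, adjusted p = 0.0446).

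AT2G28400, of the DUF584 or S40 family known from leaf senescence, had the largest bright fall among named genes that passed. It read 357.7 and 415.7 in darkness and 82.3 and 87.1 in light, with no overlap (-2.10 ± 0.31, adjusted p = 0.0446). Of 11 measured genes of the family it was the 1 that passed. Its relatives AT5G03230 and AT5G60680 were chosen after values were seen. AT5G03230 read 188.4 and 191.3 in darkness against 57.6 and 69.8 in light (-1.48, adjusted p = 0.0582), and AT5G60680 read 622.8 and 650.8 against 286.3 and 353.1 (-0.99, adjusted p = 0.0543). In all 4 members were ordered lower and 2 higher in light, with a median of -0.16 beside 0.02 over all named genes. This list was written after AT2G28400 had been seen to fall.

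Next among bright falls came 6 genes that did not pass. DRT100, a leucine-rich repeat protein, had -1.91 ± 0.58 (adjusted p = 0.177), and its replicates spread from 42.0 to 151.6 in light and from 222.8 to 472.7 in darkness. The pectate lyase gene AT5G48900 had -1.70, the ubiquitin ligase gene PUB19 -1.38, AT1G27300 -1.33, AT5G39520 -1.29 and the protein phosphatase 2C gene AT3G05640 -1.25, with adjusted p from 0.0523 to 0.219. With normal CO2 in light DRT100 read 361.9 and 374.0 and AT5G48900 369.9 and 353.5, above their values in light at low CO2. All others of these 6 read lower with normal CO2. Falls of middle brightness that passed were AT5G12050, which read 281.1 and 304.0 in darkness and 57.6 and 42.4 in light (-2.40 ± 0.19, adjusted p = 0.0144), AT2G44850 (-1.80), AT1G21830 (-1.74), the F-box gene AT1G30200 (-1.34) and the KH-domain RNA-binding protein gene AT5G56140 (-1.19). Adjusted p for the last 4 ran from 0.0363 to 0.0408.

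**Figure D2:**
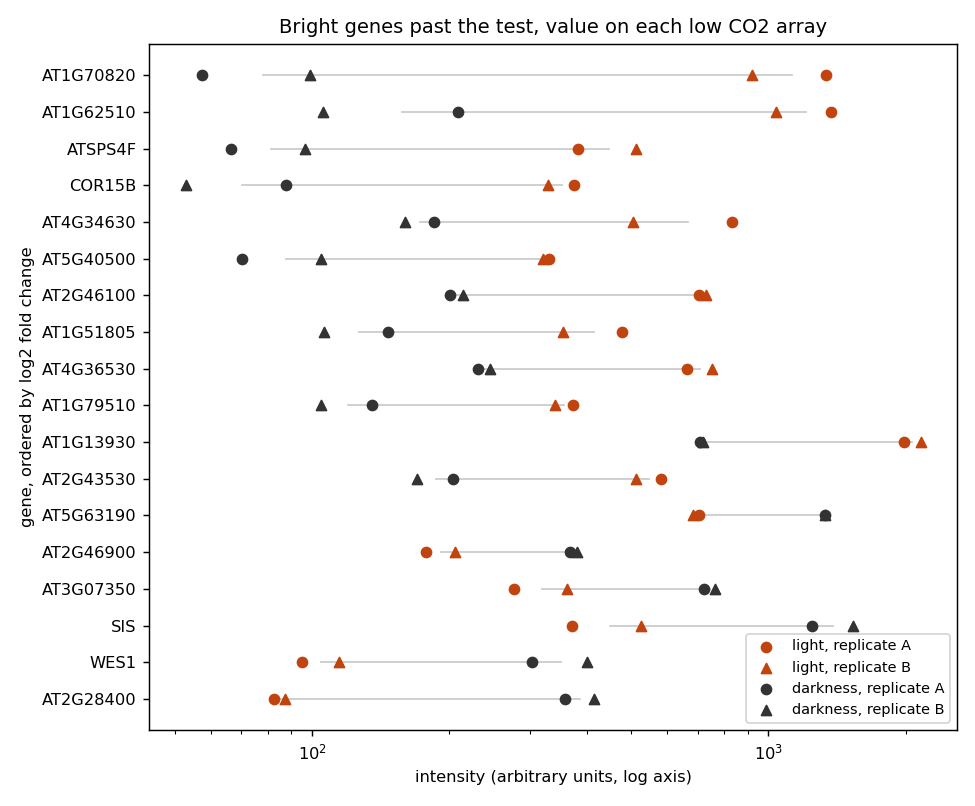
Intensity on each of the 4 low CO2 arrays (horizontal, log axis) for the bright named genes past the test: the 12 largest rises and the 6 falls, ordered by log2 fold change. Circles are replicate A and triangles replicate B, light in orange and darkness in black, and the grey line joins the group means; in no gene do light and dark points overlap, and replicates of AT5G63190 and AT2G46100 nearly coincide.

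Genes for assembling and running the NDH complex, which returns electrons to the plastoquinone pool in cyclic electron flow, and for proteins of the thylakoid lumen gave 4 calls, all higher, among 12 measured genes of 33 listed (of all named genes 0.779% were called higher and 0.15% lower, together 0.928%). Of these 12 genes 10 were bright, and among the 1592 bright named genes 39 were called higher and 6 lower. The list was written after values were seen, so its share of calls is a description only. PIFI (AT3G15840), which is needed for NDH-dependent reduction of plastoquinone in the dark, read 1634.2 and 1603.6 in light and 755.2 and 675.7 in darkness (1.17 ± 0.14, adjusted p = 0.0287). NdhN (AT5G58260), a subunit of the complex, read 724.4 and 696.4 against 293.0 and 238.3 (1.40 ± 0.15, adjusted p = 0.0255). CRR42 (AT5G20935), an NDH assembly factor, read 69.8 and 84.1 against 25.4 and 20.7 (1.47 ± 0.18, adjusted p = 0.0363). All of these had close replicates and groups apart.

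The fourth call, chosen after values were seen, was AT1G12250, a pentapeptide-repeat protein of the thylakoid lumen, with 638.8 and 676.6 in light, 339.4 and 288.0 in darkness and 318.1 and 314.2 with normal CO2 in light (1.05 ± 0.13, adjusted p = 0.0365). Among named genes, both light arrays lay above both dark arrays in 23.4% and below them in 21.7%. In the NDH and lumen list 8 of 12 were ordered higher (66.7%) and 0 lower, and the median was 0.38. The replicate letters gave 0.40 and 0.49 for the same median when each light array was set against the dark array of its letter. Other subunits had smaller values that did not pass: NdhL had 0.48 (adjusted p = 0.219) and NdhS 0.25 (adjusted p = 0.633).

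Factors for RNA processing and translation inside the chloroplast gave 3 calls, all higher, among 21 measured of 64 listed, in a list also written after values were seen. AT5G08650, a plastid LepA-type translation factor, read 582.3 and 540.5 in light and 270.5 and 300.8 in darkness (0.96 ± 0.13, adjusted p = 0.0415). AT4G11175, the plastid initiation factor IF-1, read 426.5 and 410.3 against 203.6 and 194.1 (1.05 ± 0.13, adjusted p = 0.0351). LPA66 (AT5G48910), a pentatricopeptide repeat protein for editing of psbF RNA, read 64.3 and 59.5 against 24.9 and 21.0 (1.20 ± 0.18, adjusted p = 0.049). Their light and dark arrays were apart in each case.

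FUG1 (AT1G17220), the plastid initiation factor IF-2, read 1305.4 and 1397.5 in light and 702.9 and 764.2 in darkness (0.88 ± 0.14, adjusted p = 0.0546), and CRR21, an editing factor for ndhD RNA, had 0.99 ± 0.16 (adjusted p = 0.0523); both were chosen after values were seen. In this list the median was 0.41. Of its 21 genes 14 were ordered higher (66.7%, beside 23.4% of all named genes) and 1 lower (4.76%, beside 21.7%). The lower one was PDF1A, a peptide deformylase, with -0.22 (adjusted p = 0.503), while its plastid relative PDF1B had 0.93 (adjusted p = 0.0724). MAP1B, a methionine aminopeptidase of the plastid, rose by 1.13 ± 0.16 (adjusted p = 0.0446), and CHL (AT3G47860), the chloroplast lipocalin that protects thylakoid lipids, read 356.5 and 401.3 against 165.4 and 155.7 (1.20 ± 0.18, adjusted p = 0.0468). Both were chosen after values were seen.

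Thioredoxins and peroxiredoxins of the plastid, which pass reducing power from electron transport to enzymes and peroxides, gave 0 calls among 9 measured of 24 listed, with 7 ordered higher (77.8%), 1 lower and a median of 0.33. Among all named genes 23.4% were ordered higher, and the list was not tested against this share. TRXF2, an f-type thioredoxin that activates Calvin-Benson enzymes, read 848.4 and 731.5 in light and 460.5 and 515.9 in darkness (0.68 ± 0.16, adjusted p = 0.103). Thioredoxin y2 had 0.60 ± 0.14 (adjusted p = 0.104) and NTRC, a reductase with its own thioredoxin domain that was chosen after values were seen, 0.55 ± 0.14 (adjusted p = 0.125).

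The few measured structural genes of the photosynthetic apparatus gave no call. Of 35 listed photosystem and electron transport subunits only 5 were measured. Of these 0 were called, 1 was ordered higher and 1 lower, with log2 fold changes from -0.12 (PSAE-1) to 0.16 (ATPC1, an ATP synthase subunit). PSAE-1, a stromal subunit of photosystem I, read 2984.5 and 3644.4 in light and 3466.0 and 3689.0 in darkness, which overlap. The 3 measured light-harvesting genes were all LHCB4 genes. LHCB4.1 had -0.10 and LHCB4.2 -0.27 (adjusted p = 0.47), while LHCB4.3, a form of the minor antenna CP29 induced by strong light, read 740.7 and 1085.5 in light and 352.2 and 376.2 in darkness (1.28 ± 0.20, adjusted p = 0.0517). The 10 measured plastid ribosomal proteins of 40 listed had 0 calls, 1 ordered higher, 1 lower and a median of -0.09. Chlorophyll synthesis genes had 0 calls among 11 measured of 28, with 3 ordered higher, 4 lower and a median of -0.10. In that list LIL3:1, a thylakoid protein that anchors enzymes of chlorophyll synthesis, had 0.83 ± 0.19 (adjusted p = 0.103) and HEME2, a uroporphyrinogen decarboxylase, 0.40 (adjusted p = 0.224). No test compared these lists with those of NDH and lumen genes, plastid factors or thioredoxins, which were written after values were seen.

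**Figure D3:**
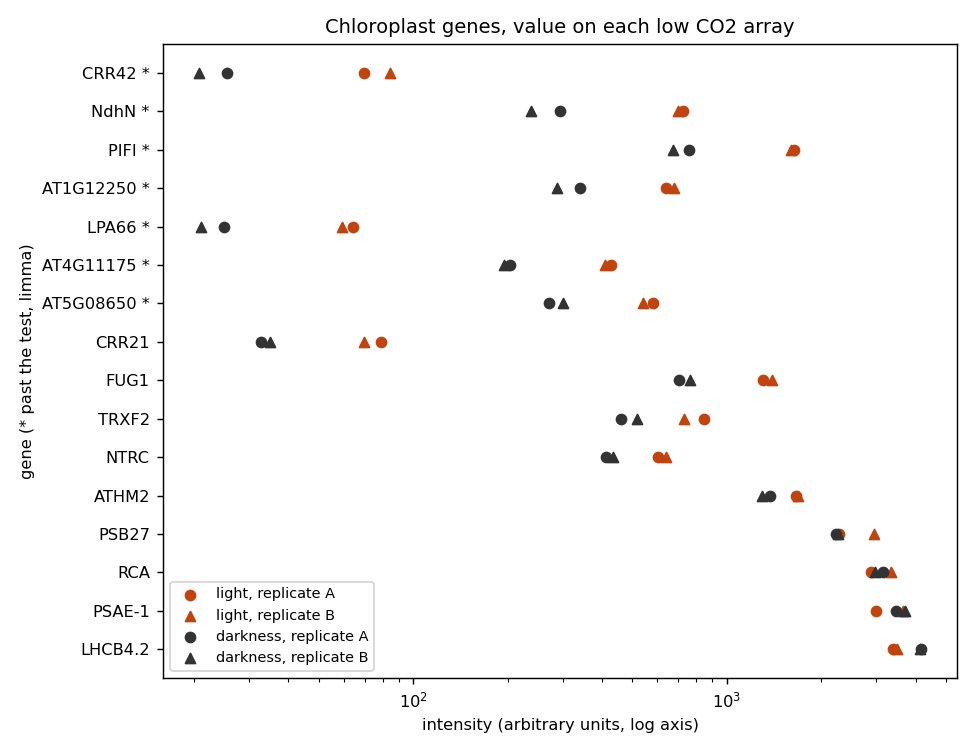
Intensity on each low CO2 array (horizontal, log axis) for 16 chloroplast genes, from NDH and lumen genes at the top through RNA and translation factors and thioredoxins to abundant structural genes; an asterisk marks genes past the test in limma. Light points (orange) are well right of dark points (black) in the 7 marked genes, while in RCA the groups overlap and in LHCB4.2 the dark points are the higher.

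On the lists of carbon metabolism limma called ATSPS4F and SBE2.2, both higher. The phosphoglucomutase-like AT1G70820 named above is not on these lists, which hold only part of carbon metabolism. Of 5 measured Calvin-Benson genes 4 were ordered higher (80.0%), 0 were called, and the median was 0.28: the phosphoglycerate kinase gene AT1G56190 read 688.3 and 696.8 in light and 489.0 and 545.2 in darkness (0.42, adjusted p = 0.181), and SBPASE had 0.40 (adjusted p = 0.27). Of 4 photorespiration genes 3 were ordered higher and 0 called, with a median of 0.34; glycerate kinase AT1G80380 had 0.49 (adjusted p = 0.251) and the glycine decarboxylase T-protein gene AT1G11860 0.36 (adjusted p = 0.261). SBE2.2 (AT5G03650), a starch branching enzyme, rose from 236.7 and 235.3 to 449.3 and 403.0 (0.83 ± 0.13, adjusted p = 0.0493) in a plant that makes almost no starch. It was the 1 call among 3 measured starch genes, all ordered higher. Besides ATSPS4F, the sucrose list held 3 measured genes with 0 calls and log2 fold changes from -0.02 to 0.65. Among all named genes 23.4% were ordered higher, and among bright ones 24.2%. Each of these lists had few measured genes, and none was tested against these shares.

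Sugar transporters had 0 calls among 20 measured genes and 6 ordered higher against 0 lower, with a median of 0.13. Of all named genes 23.4% were ordered higher and 21.7% lower. Only 1 of the 20 was bright, and dim probe sets as a whole were ordered higher in 24.5% and lower in 13.3%. Whether sugar transporters differed from these shares was not tested. SWEET1, a plasma membrane glucose carrier, read 285.2 and 218.7 in light and 147.8 and 139.6 in darkness (0.77 ± 0.18, adjusted p = 0.109), and the vacuolar carrier SWEET16 had 0.59 (adjusted p = 0.202). Among 9 measured enzymes of glycolysis and organic acids 0 were called, 2 were ordered higher and 4 lower. The cytosolic isocitrate dehydrogenase cICDH read 947.0 and 1198.5 in light and 1779.0 and 1971.3 in darkness (-0.81 ± 0.19, adjusted p = 0.107). IDH-V, a mitochondrial isocitrate dehydrogenase subunit, had -0.66 (adjusted p = 0.145).

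Genes for respiration and for cytosolic protein synthesis gave 0 calls. Of 35 measured genes of the mitochondrial respiratory chain (62 listed), 21 were ordered lower in light (60%), 3 were ordered higher (8.57%) and 11 overlapped, with a median of -0.17. AT5G40810, a cytochrome c1, read 375.0 and 396.8 in light and 508.7 and 514.6 in darkness (-0.40 ± 0.12, adjusted p = 0.186), and the ATP synthase subunit gene AT4G29480 had -0.45 (adjusted p = 0.203). The 3 genes ordered higher included SDH1-1 (0.38) and SDH2-1 (0.37), subunits of succinate dehydrogenase, which is both a respiratory complex and an enzyme of the citric acid cycle.

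Of 124 measured cytosolic ribosomal protein genes (209 listed) 56 were ordered lower (45.2%), 4 were ordered higher (3.23%) and 64 overlapped, and the median was -0.20, with -0.19 for letter A and -0.21 for letter B. The largest difference was in AT3G07110, a ribosomal protein of the large subunit, which read 490.3 and 410.2 in light and 803.6 and 802.5 in darkness (-0.83 ± 0.17, adjusted p = 0.0867). AT1G80750, also of the large subunit, had -0.56 (adjusted p = 0.13). Bright named genes as a whole were ordered lower in 33.6% and higher in 24.2%, with a median of -0.08; 85 of the 124 ribosomal genes and 27 of the 35 respiratory genes were bright. The 4 measured reference genes, often used as constant standards, lay on the same side, all 4 ordered lower, with a median of -0.35: PEX4 read 134.7 and 118.6 in light and 184.0 and 155.7 in darkness (-0.40, adjusted p = 0.273) and AT2G28390 had -0.49 (adjusted p = 0.194). Proteasome subunits had 3 of 6 ordered lower, 1 higher and 0 called, with RPN12a at -0.26 (adjusted p = 0.348) and AT5G45620 at -0.20 (adjusted p = 0.483).

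Of 12 measured auxin-responsive genes, 1 fell, 6 were ordered lower and 0 higher, and the median was -0.63. It was -0.29 for letter A and -0.55 for letter B, and 4 of the 12 had a log2 fold change above 0. Only 2 of the 12 were bright, and IAA20, IAA30 and GH3.17, all ordered lower, were dim. Named genes as a whole were ordered lower in 21.7% and higher in 23.4%, and the list was not tested against them. WES1 (AT4G27260), a GH3 enzyme that joins auxin to an amino acid, was the 1 that passed: it read 302.9 and 399.8 in darkness, 95.2 and 114.5 in light, and 29.5 and 25.9 with normal CO2 in light (-1.67 ± 0.19, adjusted p = 0.0277). IAA29, a repressor of auxin signalling that is known as a target of phytochrome-interacting factors, read 124.0 and 80.8 in darkness against 14.2 and 21.5 in light (-2.11 ± 0.34, adjusted p = 0.0525); it was chosen after values were seen.

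Among 26 measured expansins and xyloglucan endotransglucosylases, which loosen the cell wall, 4 were ordered higher and 4 lower. XTH16 rose from 33.2 and 32.2 to 77.1 and 87.7 (1.16 ± 0.15, adjusted p = 0.0393), whereas EXPA16, chosen after values were seen, read 234.9 and 130.2 in darkness and 19.2 and 22.8 in light (-2.69 ± 0.44, adjusted p = 0.0543). The median of this list was 0.01. Of 7 measured tubulins, the subunits of microtubules, 4 were ordered lower (57.1%) and 0 higher, with 0 calls and a median of -0.63. Among all named genes 21.7% were ordered lower, and among bright and middle probe sets 32.7% and 35.2%. The tubulin list was written after values were seen and was not tested against these shares. TUB6 read 329.6 and 223.4 in light and 710.7 and 461.5 in darkness (-1.06 ± 0.26, adjusted p = 0.121), TUB1 had -0.97 (adjusted p = 0.125), and TUA6, chosen after values were seen, had -0.63 with its light replicates at 640.3 and 347.7.

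CYP71B26 (AT3G26290) read 400.2 and 263.8 in light and 78.7 and 47.6 in darkness (2.27 ± 0.29, adjusted p = 0.0365), the 1 call among 18 genes whose names carry cytochrome P450, nearly all of the CYP71B group. Of these 18, 10 were ordered higher (55.6%) and 0 lower, with a median of 0.32, and several are neighbours with similar sequences. Only 1 of the 18 was bright, and most of the 10 ordered higher were dim. Dim probe sets as a whole were ordered higher in 24.5% and lower in 13.3%. Whether the P450 list differed from that lean was not tested. UGT72E1, a glucosyltransferase of phenylpropanoid aldehydes, fell from 202.6 and 228.2 to 67.2 and 81.7 (-1.45 ± 0.16, adjusted p = 0.0254), the 1 call among 43 measured UDP-glycosyltransferases, of which 8 were ordered higher and 5 lower. AT1G06000, a flavonol rhamnosyltransferase chosen after values were seen, was dim and rose from 1.4 and 1.5 to 29.1 and 21.8, far below its 147.0 and 129.6 with normal CO2 in light (1.90 ± 0.21, adjusted p = 0.0274). Among 12 glutathione transferases, which conjugate toxic compounds, 0 were called, 5 were ordered higher and 2 lower, with GSTU28 at 0.73 (adjusted p = 0.13) and GSTU18 at -0.59 (adjusted p = 0.103).

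Heat shock proteins and chaperonins gave 1 call among 11 measured of 47 listed, with 6 ordered higher (54.5%) and 1 lower. Among all named genes 0.928% were called, 23.4% were ordered higher and 21.7% lower. Only 2 of the 11 were bright, and dim probe sets as a whole were ordered higher in 24.5% and lower in 13.3%. Whether this list differed from these shares was not tested. AT3G09440, a cytosolic Hsc70 chaperone, read 144.2 and 92.3 in light and 30.8 and 32.3 in darkness (1.66 ± 0.22, adjusted p = 0.0408). Cpn60beta4, a plastid chaperonin subunit that folds the NDH subunit NdhH and was chosen after values were seen, read 154.9 and 116.7 against 54.3 on each dark array (1.20 ± 0.19, adjusted p = 0.0501). The median of the list was 0.64, but 1.10 for letter A and 0.14 for letter B.

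Genes encoded in the plastid genome also differed by letter, with a median of 0.18 over both, -0.05 for A and 0.34 for B; of 69 measured, 20 were ordered higher (29.0%), 3 lower and 0 called. Those with the smallest p were rps16, a ribosomal protein, at 0.69 (adjusted p = 0.107) and ndhK, an NDH subunit, at 0.67 (adjusted p = 0.135). Of the 69 genes 58 were bright, and bright named genes as a whole were ordered higher in 24.2% and lower in 33.6%. Autophagy genes had 0 calls among 12 measured, 1 ordered higher (AT3G61960, 0.42, adjusted p = 0.224) and 4 lower (AT3G59950 among them, -0.30, adjusted p = 0.406), with a median of -0.08. Among all named genes 23.4% were ordered higher and 21.7% lower. The 3 measured genes induced by darkness and starvation overlapped between light and darkness. MCCA, part of the methylcrotonyl-CoA carboxylase that acts on leucine, read 448.3 and 1806.1 in light and 905.3 and 2307.0 in darkness, where the replicates of each group differed more than the groups did, and it read 80.3 and 85.2 with normal CO2 in light. MCCB, its partner subunit, behaved alike, with 396.4 and 718.7 in light and 591.6 and 1196.1 in darkness.

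**Figure D4:**
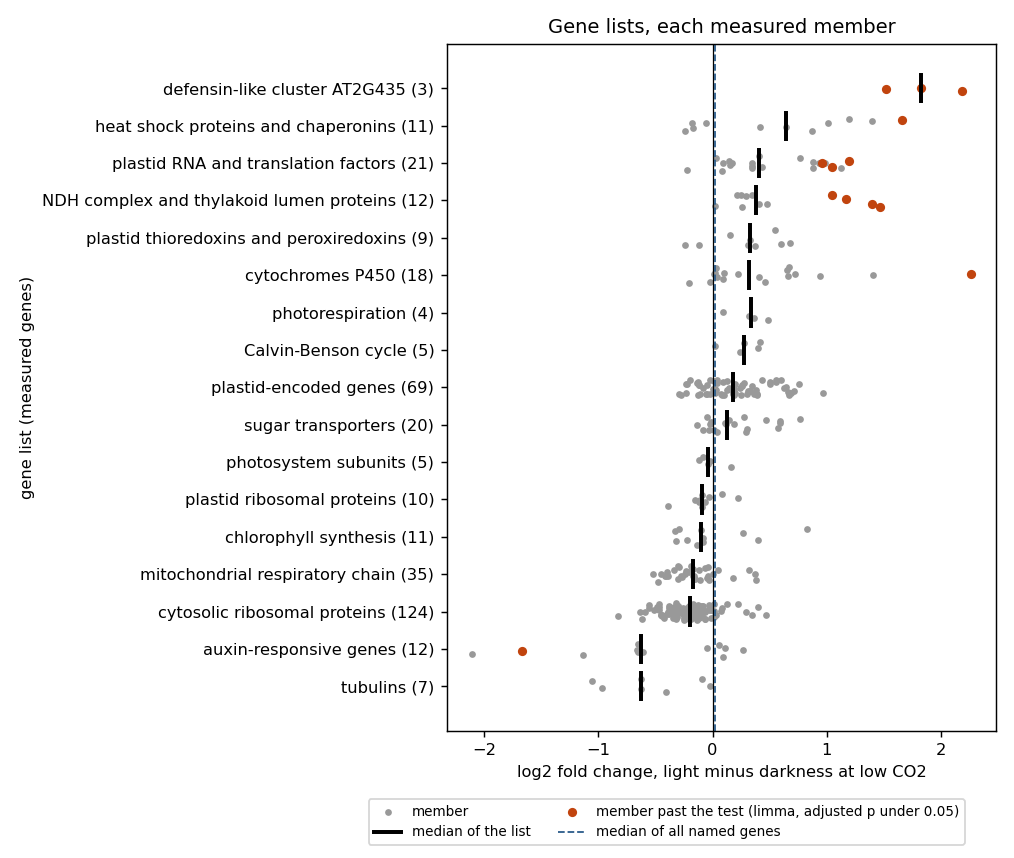
Log2 fold change of light minus darkness at low CO2 for each measured member of 17 gene lists (points; orange where limma passed), with the median of each list as a black bar and the median of all named genes as a dashed line. The medians were 0.38 for NDH and lumen genes, 0.41 for plastid RNA and translation factors, -0.04 for photosystem subunits, -0.09 for plastid ribosomal proteins, -0.17 for the respiratory chain and -0.20 for cytosolic ribosomal proteins; the lists were not tested against each other.

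The number of calls depended on which arrays were fitted. A model of the 4 low CO2 arrays alone gave 0 calls in limma, with 3445 probe sets at an unadjusted p under 0.05 beside 3758 in the model of 6 arrays. Leaving out light A, light B, dark A or dark B left 1, 99, 4 and 6 calls, and leaving out either array of normal CO2 left 0 (3442 and 3435 at an unadjusted p under 0.05), although that group is no side of the comparison.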

How the data were processed

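Total RNA was labelled with biotin and hybridised to single-colour Affymetrix arrays. The authors deposited 1 linear intensity per probe set and array, made with MAS5 per the submitters' processing notes; no version, target of scaling or detection call was given in the sources used here. The trimmed mean intensity was 100.01 on each array and medians were 34.6 to 39.55, so no normalization was added. Array data carry no counts, and the number of arrays limits the precision.

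Of 22810 probe sets, 64 controls were left out. The platform annotation supplied with the values gave 1 gene for 13513, several for 503 and none for 8730, and 13436 matched the TAIR10.1 gene table by Entrez ID, which gave 13356 named genes. For lists, the probe set with the highest mean stood for a gene. Gene roles are textbook background.

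The pseudocount of 7.3 lies at the 20.1 percentile of all values, so changes of dim probe sets are understated. A model of 3 group means was fitted to 6 arrays with limma 3.58.1 in R 4.3.3 (eBayes with trend; 3 residual and 3.27 prior degrees of freedom), with Benjamini-Hochberg adjustment over 22746 probe sets; it was tested on simulated data. Errors are standard errors with n = 2 arrays per group. P-values measure the spread between these arrays. Named genes were the 12 largest rises and falls of bright and 6 of middle probe sets past the test and not overlapping, filled with non-overlapping ones at an unadjusted p under 0.05, and per list up to 3 members past the test or the 2 with the smallest p; others are marked in the text as chosen after values were seen, and so were RCA, PYK10, AT5G17820, AT1G22730, NdhL, NdhS, PDF1A, PDF1B, LHCB4.1, SDH1-1 and SDH2-1. Members and lists were chosen with earlier results of these data known. Of 68 lists 16 were written or rewritten after the values were seen, among them those of NDH and lumen, plastid factors, thioredoxins, photosystem subunits, plastid and cytosolic ribosomal proteins, respiratory chain, heat shock proteins, proteasome, tubulins and plastid-encoded genes; 37 lists had 3 or more measured genes. Alternatives were other pseudocounts, a filter on dim probe sets, quantile normalization, a common median, 4 arrays alone, a block for the replicate letter, eBayes without trend and leaving out each array.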

Additional observations from a re-analysis of the deposited data

How the results depend on the processing

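Calls higher and lower in light were 193 and 44 as reported, 278 and 90 with a pseudocount of 1, 119 and 26 with 32, 431 and 266 among probe sets of at least 50 in mean intensity, 235 and 70 with a common median, 171 and 36 after quantile normalization, 91 and 14 without a trend in eBayes, and 0 and 0 with the 4 low CO2 arrays alone. Leaving out 1 array gave 0 to 88 higher and 0 to 11 lower. By ordering alone, the 5358 higher and 5116 lower became 4625 and 5771 after quantile normalization, 4804 and 5628 with a common median, 2221 and 3404 with the filter on dim probe sets, and 8133 to 9289 and 7596 to 8405 without 1 low CO2 array, where fewer values need to be ordered. With the replicate letter as a block the calls were 338 and 137. The labels do not say that a letter marks a shared batch; the difference A minus B correlated across probe sets with r = 0.307 between light and darkness, 0.0153 between light and normal CO2 and 0.159 between darkness and normal CO2, and the bioC spike-in read 66.3 and 72.4 on the low CO2 arrays of letter A and 144.6 and 116.2 on those of B. Of 51 named genes past the test, 51 kept the call with the block, 50 with a pseudocount of 1, 50 with a common median, 43 after quantile normalization, 35 with a pseudocount of 32, 27 without a trend and 0 to 16 without 1 array, and 0 changed direction under these alternatives. Genes that did not pass turned direction as follows: MCCA (0.32, and -1.67 at its lowest, without light B) and PSAE-1 (0.03) without light A, and RCA, which was 0.02, with a common median (-0.00), without light B (-0.08) and without dark B (-0.02). List medians ranged over the alternatives from 0.36 to 0.52 for NDH and lumen genes, 0.38 to 0.82 for plastid factors, 0.29 to 0.41 for thioredoxins, -0.31 to -0.11 for cytosolic ribosomal proteins, -0.22 to -0.11 for the respiratory chain, -1.40 to -0.26 for auxin-responsive genes, -0.80 to -0.24 for tubulins, 0.24 to 1.02 for heat shock proteins, 0.13 to 0.56 for cytochromes P450, -0.78 to -0.07 for DUF584 genes, 0.05 to 0.30 for sugar transporters, 0.26 to 0.43 for the Calvin-Benson cycle, 0.22 to 0.43 for starch and -0.20 to -0.01 for the proteasome, while those of plastid-encoded genes (-0.04 to 0.36), chlorophyll synthesis (-0.28 to 0.12), plastid ribosomal proteins (-0.20 to 0.05), light-harvesting proteins (-0.21 to 0.01), photosystem subunits (-0.07 to 0.03), glycolysis and organic acids (-0.27 to 0.12), autophagy (-0.18 to 0.10), expansins and xyloglucan endotransglucosylases (-0.43 to 0.14), UDP-glycosyltransferases (-0.10 to 0.11), genes induced by darkness and starvation (-1.15 to 0.32) and glutathione transferases (-0.08 to 0.55) took both signs. The cause was not tested.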
